A study of Danio rerio with 4 samples.

Results

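Hepatocyte-like cells are the cells of these libraries in which transcripts of liver plasma proteins make up a measurable share of the RNA. They were chosen from all 4 deposited matrices of a study that asked how blocking TGF-β signalling in the embryo affects blood and immune cells later. A cell was taken when it held at least 500 UMIs (unique molecular identifiers, 1 per counted RNA molecule), at least 300 genes and at most 10% mitochondrial UMIs. Beyond that, fabp10a, tfa, ttr, serpina1, serpina1l, gc and apoa1b together had to make up at least 3% of its UMIs, with at least 3 of these 7 genes detected and at least 2 UMIs of fabp10a. The choice therefore used measured values, and the levels of these 7 genes are given below as a description only. Of 64800 cells that passed the quality filters, 136 were hepatocyte-like.

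The 4 groups held 1 library each, from zebrafish larvae (Danio rerio) raised from wells of 40 to 50 dechorionated embryos. ALK5i stands for SB431542, an inhibitor of ALK5 (the type I receptor for TGF-β), given at 20 µM between 30 and 50 hours post fertilization (hpf). DMSO is the solvent control over the same hours. At 6 days post fertilization (dpf), mpeg1.1 mCherry+ cells were sorted from ALK5i larvae and from DMSO larvae. At 3 dpf, gata2b GFP+ cells were sorted from ALK5i larvae and from DMSO larvae. The labels give no strain and no further allele. Neither gate was made for liver cells, so hepatocyte-like cells are a side population of both sorts, and their number says nothing about the size of the liver. Because each group is 1 library, an effect of ALK5i cannot be told apart from a difference between pools of embryos or libraries. The same holds for stage, gate and library. No test between groups was possible, and every interval below covers counting error only.

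Hepatocytes make most proteins of the blood plasma, among them lipid carriers, transport proteins, clotting factors and complement. They also handle the body's glucose, amino acids, lipids and foreign compounds. In zebrafish larvae the liver buds from the gut tube during embryonic life, and its cells take over the supply of plasma proteins and lipid as the yolk is used up.

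Hepatocyte-like cells made up 2.53% of the cells in the 6 dpf ALK5i library (30 of 1184, exact Clopper-Pearson 95% interval 1.72 to 3.6%) and 2.82% in the 6 dpf DMSO library (56 of 1984, 2.14 to 3.65%). They made up 0.0946% in the 3 dpf ALK5i library (26 of 27473, 0.0618 to 0.139%) and 0.0703% in the 3 dpf DMSO library (24 of 34159, 0.0450 to 0.105%). The intervals of ALK5i and DMSO overlapped at each stage, while the share at 6 dpf lay far above that at 3 dpf under both treatments. Without members rich in macrophage marker RNA, described below, the 6 dpf shares were 2.04% with ALK5i and 2.68% with DMSO.

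The hepatocyte-like cells were deep at 6 dpf and shallow at 3 dpf. Their median was 27194 UMIs in the 6 dpf ALK5i library and 31911 in the 6 dpf DMSO library, against 6431 and 5491.5 in the other cells of those libraries. At 3 dpf the medians were 3942.5 UMIs with ALK5i and 3152 with DMSO, against 1794 and 2415 in the other cells. At 6 dpf depth varied widely, between 938 and 103475 UMIs with ALK5i and between 899 and 100626 UMIs with DMSO. A line set at 10000 UMIs left 12 of 30 ALK5i cells and 16 of 56 DMSO cells under it. At 3 dpf 26 of 26 ALK5i cells and 21 of 24 DMSO cells lay under it. Summed over members, the libraries gave 813512, 1765536, 97103 and 112785 UMIs (6 dpf ALK5i, 6 dpf DMSO, 3 dpf ALK5i, 3 dpf DMSO). A count of 0 then allows a level of up to 3.69, 1.70, 30.9 and 26.6 CPM (counts per 1000000 summed UMIs) in the same order, so low genes can be read at 6 dpf only.

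**Figure D1:**
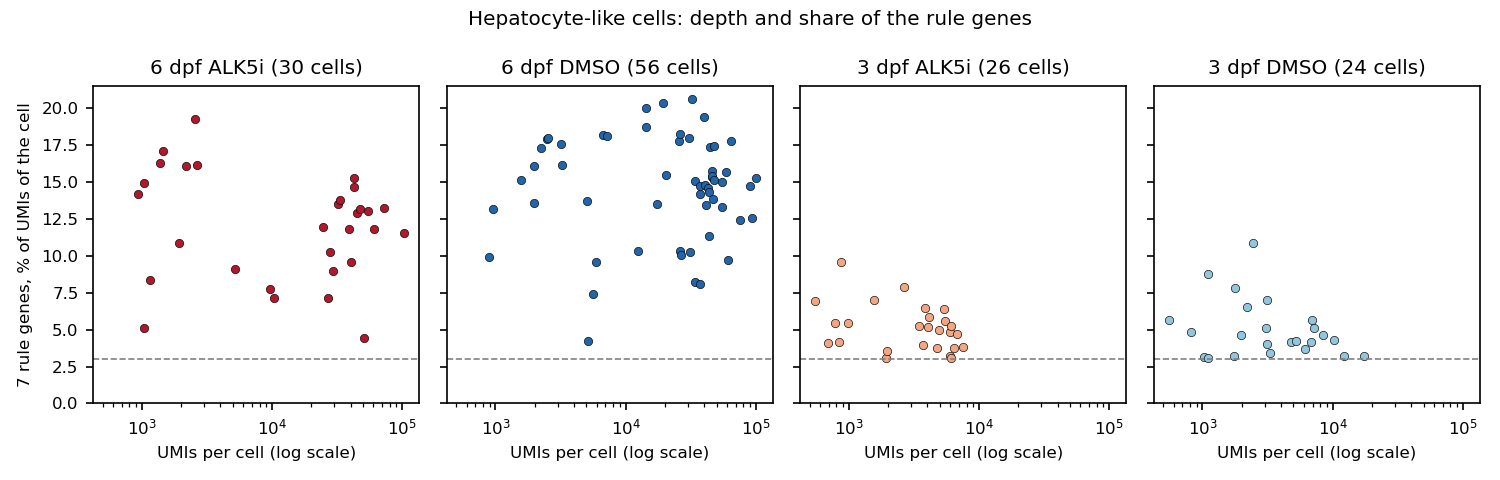
Each point is 1 hepatocyte-like cell, with its UMIs on a log scale (x) and the share of its UMIs from the 7 rule genes (y, %), 1 panel per library; the dashed line is the 3% threshold. The 6 dpf cells lie mostly far above the threshold (medians 12.4% with ALK5i and 15% with DMSO), the 3 dpf cells close to it (medians 5.09% and 4.45%).

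At 3 dpf the threshold cut through a run of cells lying on both sides of it, while at 6 dpf it lay clear of nearly all cells. In the 6 dpf libraries no member had a share under 4%, and 1 kept cell in each library had a share of 2 to 3%. In the 3 dpf libraries 8 ALK5i and 8 DMSO members had a rule share of 3 to 4%, and 8 and 17 kept cells outside the set had a share of 2 to 3%. A further 0, 2, 4 and 5 cells (6 dpf ALK5i, 6 dpf DMSO, 3 dpf ALK5i, 3 dpf DMSO) reached 3% and missed one of the other conditions.

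Scrublet called none of the 136 members a doublet (a droplet with more than 1 cell), although it called 5 and 4 cells in the 6 dpf ALK5i and DMSO libraries (0.422% and 0.202%) and 1930 and 2763 in those at 3 dpf. The ALK5i and DMSO libraries shared 3 barcodes at 6 dpf and 248 at 3 dpf, and no barcode belonged to a member in more than 1 library. Of the genes that defined the gates, GFP had 0 UMIs in the members and in the other cells of all 4 libraries, so its 0 says nothing about the members. mCherry and gata2b had 0 UMIs in the members. In the other cells mCherry was at 3.76 and 3.68 CPM at 6 dpf, and gata2b at 27.8 and 30.1 CPM at 3 dpf (ALK5i, then DMSO). A 0 in the members allows up to 3.69 and 1.70 CPM at 6 dpf and 30.9 and 26.6 CPM at 3 dpf. Apart from mCherry at 6 dpf with DMSO, these zeros therefore hardly set the members apart from the other cells. EYFP, another added sequence, had 41 UMIs in the 3 dpf DMSO members, 39 of them in 1 cell, and 0 in the members of the other libraries. In the other cells EYFP was at 614 and 768 CPM at 3 dpf, and at 0.537 and 0.0541 CPM at 6 dpf. Its 0 in the 3 dpf ALK5i members allows up to 30.9 CPM, far below the 614 CPM of the other cells. At 6 dpf its 0 says nothing about the members. mpeg1.1, the macrophage perforin gene whose promoter drives mCherry, had 10 UMIs in the 6 dpf ALK5i members, 4 in the 3 dpf DMSO members and 0 in the other 2 libraries.

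Among the rule genes, fabp10a encodes the liver fatty acid binding protein of fish. Its summed level was 37715 CPM in the 6 dpf ALK5i members and 54394 CPM in the 6 dpf DMSO members. At 3 dpf it was 3707 CPM with ALK5i and 3644 CPM with DMSO. In single cells fabp10a made up 1.84 to 7.09% of UMIs in the 6 dpf ALK5i cells and 1.27 to 9.63% in the 6 dpf DMSO cells, against 0.123 to 0.638% and 0.0943 to 0.974% at 3 dpf. The ranges of the 2 stages did not touch under either treatment, whereas ALK5i and DMSO cells overlapped at each stage.

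tfa, the iron carrier transferrin, ran the other way. It had 4879 CPM in the 6 dpf ALK5i members and 5234 CPM in the 6 dpf DMSO members, against 24469 and 23478 CPM at 3 dpf. The median cell gave 0.481% of its UMIs to tfa at 6 dpf with ALK5i and 0.482% with DMSO, against 2.55% and 2.24% at 3 dpf. Shallow 6 dpf cells under 10000 UMIs had medians of 0.664% and 0.525%, against 2.55% and 2.49% in the 3 dpf cells under that depth. tfa counts toward the 3% threshold, and at 3 dpf it gave 2.45% and 2.35% of the summed member UMIs. The rule therefore favours 3 dpf cells high in tfa, so the stage contrast of tfa is a description only.

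The other rule genes were higher at 6 dpf. apoa1b, the main protein of HDL, had 65554 CPM with ALK5i and 75053 CPM with DMSO at 6 dpf, and 17868 and 14807 CPM at 3 dpf. serpina1, the elastase inhibitor alpha-1-antitrypsin, had 3371 and 4954 CPM at 6 dpf and 721 and 851 CPM at 3 dpf. ttr, which carries thyroid hormone, had 2173 and 2301 CPM at 6 dpf and 165 and 408 CPM at 3 dpf. ttr was the one rule gene with a treatment ratio past 2-fold, at 3 dpf, where it had 16 UMIs in 11 of 26 ALK5i cells and 46 UMIs in 18 of 24 DMSO cells.

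**Figure D2:**
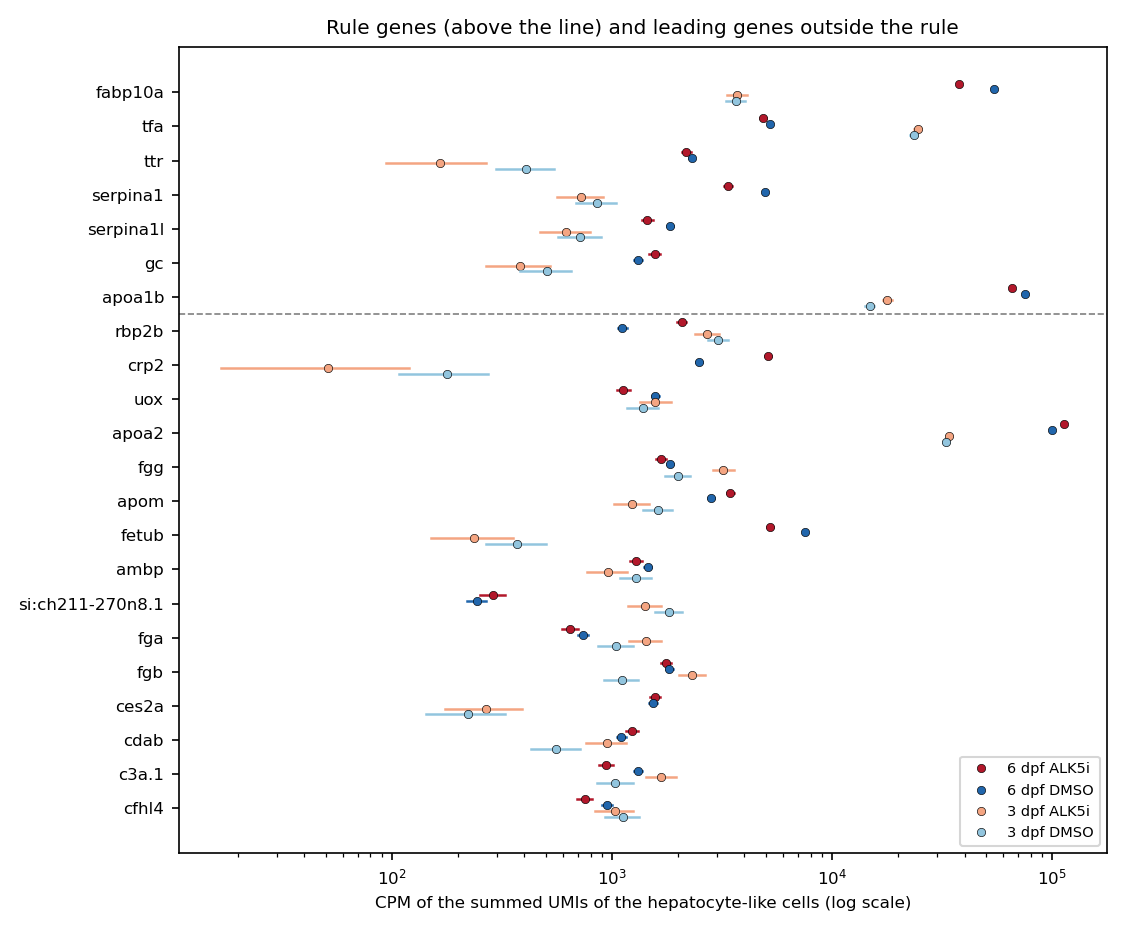
Summed level in the hepatocyte-like cells of each library (x, CPM, log scale) for the 7 rule genes (above the dashed line) and for 15 leading genes outside the rule (below it); points are libraries and bars the exact Poisson 95% interval. fabp10a and apoa1b lie to the right at 6 dpf and tfa to the left, while uox lies between 1128 and 1576 CPM in all 4 libraries.

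Genes outside the rule that set the members apart were also liver genes. The 15 with the largest fold over the other cells of the same libraries included apoa2, a lipoprotein gene with 113466 and 100351 CPM at 6 dpf and 34026 and 32859 CPM at 3 dpf (ALK5i, then DMSO). Its level in the other cells was 909 and 1156 CPM at 6 dpf and 39.9 and 62.5 CPM at 3 dpf. The same group held the fibrinogen chains fga, fgb and fgg, the plasma proteins ambp and fetub, complement c3a.1, urate oxidase uox and the retinol binding protein gene rbp2b. uox and apoa2 had a UMI in 136 of 136 members. hnf4a, a transcription factor of hepatocytes and gut, was seen in 7 of 30, 12 of 56, 4 of 26 and 3 of 24 members (6 dpf ALK5i, 6 dpf DMSO, 3 dpf ALK5i, 3 dpf DMSO). hpxa, hemopexin, had 20 and 22 UMIs at 6 dpf and 0 at 3 dpf. Because the members were chosen by liver transcripts, these levels describe the set and do not test it.

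Across the 86 cells at 6 dpf, the log CPM of each of 413 genes in a cell was set against the rule share. The highest values were those of gamt (Pearson r = 0.69), the ribosomal protein gene rpl13 (0.64), apoa2 (0.58), and the ribosomal protein genes rplp0 (0.53) and rps3a (0.52). gamt encodes the last enzyme of creatine synthesis. tmsb4x, an actin-binding peptide gene, had the lowest r (-0.60), and that of depth was -0.01. In subsets added after these values were seen (the 30 ALK5i cells, the 56 DMSO cells and the 77 cells under 0.1% macrophage markers), r was 0.69, 0.69 and 0.72 for gamt, and -0.78, -0.47 and -0.54 for tmsb4x. These cells share 2 libraries and the shares of a cell sum to a fixed total, so the values are a description.

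Markers of other cell types differed by list. The 18 exocrine pancreas markers summed to 56.5 and 50.4 CPM at 6 dpf (ALK5i, then DMSO), against 11918 and 14848 CPM in the other cells of those libraries. The cell cycle genes summed to 19.7 and 19.8 CPM at 6 dpf and 371 and 647 CPM at 3 dpf, and mki67, a proliferation gene, had 0 UMIs in both 6 dpf sets. The 13 pigment markers summed to 94.7 and 77.0 CPM at 6 dpf and to 669 and 1756 CPM at 3 dpf, led by gch2, a pteridine synthesis gene. The 12 biliary markers summed to 2084 and 2452 CPM at 6 dpf and 6169 and 3618 CPM at 3 dpf, against 2912 and 2454 CPM and 1010 and 1024 CPM in the other cells. Of these, krt18a.1, an epithelial keratin, gave 553 and 741 CPM at 6 dpf and 4439 and 2013 CPM at 3 dpf, while spp1 and cftr had 0 UMIs in the members of all 4 libraries. The 16 enterocyte markers summed to 2799 and 1790 CPM at 6 dpf and 1596 and 1197 CPM at 3 dpf, against 307 and 242 CPM and 49.6 and 36.1 CPM in the other cells. apoa4b.1, an apolipoprotein gene that is also on the lipoprotein list, gave 2603 and 1705 CPM of this at 6 dpf and 1298 and 851 CPM at 3 dpf. Without apoa4b.1, the rest of the list still summed to more than the whole list in the other cells at 3 dpf. At 6 dpf the rest summed to less than the whole list in the other cells. vil1, a brush border gene, had 0 UMIs at 6 dpf, which does not speak for the other enterocyte markers.

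Macrophage RNA was spread unevenly. The 25 macrophage markers summed to 1616 CPM in the 6 dpf ALK5i members and 189 CPM in the 6 dpf DMSO members, against 7800 and 7554 CPM in the other cells there. At 3 dpf they summed to 319 CPM with ALK5i and 896 CPM with DMSO. In the 6 dpf ALK5i set, 1289 of 1315 macrophage UMIs lay in 6 cells, in which these markers were at least 0.1% of UMIs. Those 6 cells held 33.6% of the set's UMIs. Cells at or over 0.1% numbered 3 in the 6 dpf DMSO set, 2 in the 3 dpf ALK5i set and 3 in the 3 dpf DMSO set, with 3.55%, 7.39% and 14.7% of the UMIs. In the opposite direction, fabp10a had a UMI in 5.88% and 5.64% of macrophage-marker cells at 6 dpf and in 0.0437% and 0.198% at 3 dpf. The main treatment results below are also given without the cells at or over 0.1%, a threshold set after the values were seen.

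**Figure D3:**
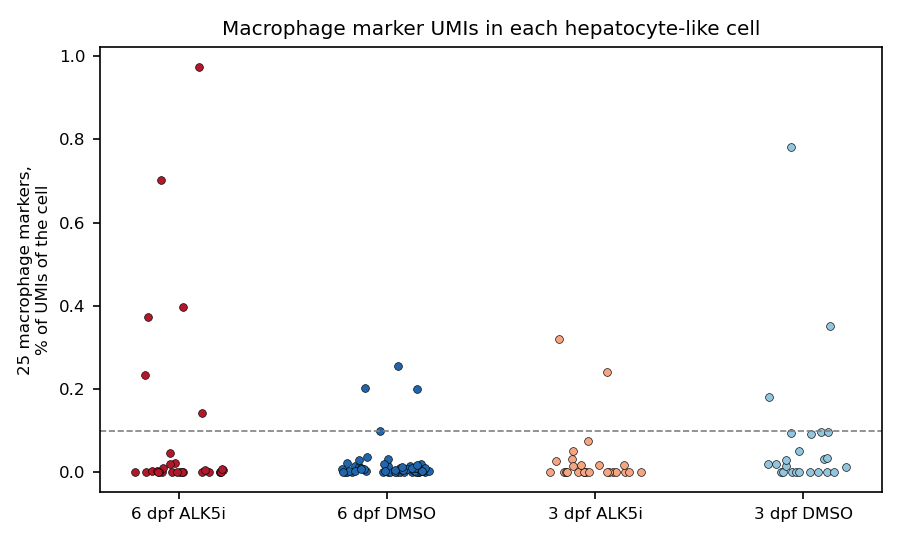
Share of each hepatocyte-like cell's UMIs from 25 macrophage marker genes (y, %), by library (x); each point is 1 cell, spread sideways only to be seen. In the 6 dpf ALK5i library 6 cells lie above the dashed line at 0.1%, against 3 of 56 in the 6 dpf DMSO library.

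At 6 dpf, ALK5i members were set against DMSO members for genes passing a count filter. Of these genes, 3 of 19 in fatty acid oxidation and 1 of 14 in lipoprotein assembly were at least 2-fold higher with ALK5i, and 1 of 22 in complement was at least 2-fold lower. Ratios are log2 of ALK5i over DMSO CPM with 10 CPM added to each, over genes with at least 20 UMIs in the 2 libraries together. Of 4160 such genes, 181 were at least 2-fold apart (4.35%), 146 higher (3.51%) and 35 lower (0.841%) with ALK5i, and the median over all genes was 0.13. Without the cells rich in macrophage RNA, 3607 genes passed, 91 of them higher and 80 lower (4.74% together), with a median of 0.07. With the rule share set at 5%, 77 were higher and 45 lower.

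Fatty acid oxidation was the liver list with the highest median. Of 26 genes on that list, 19 passed the count filter, 14 had a ratio above 0, 3 were at least 2-fold higher and none 2-fold lower, and the median was 0.55. acadl, an acyl-CoA dehydrogenase, had 63.9 CPM in ALK5i members (52 UMIs) and 22.7 CPM in DMSO members (40 UMIs), a ratio of 1.18 (95% interval 0.69 to 1.65). hadhaa, a subunit of the trifunctional protein of the mitochondrial cycle, had 36.9 CPM with ALK5i and 8.50 CPM with DMSO, a ratio of 1.34 (0.77 to 1.85). Its paralogue hadhab had 21 and 5.10 CPM and a ratio of 1.03 (0.41 to 1.54). How the authors' counting divided reads between such paralogues was not tested. These genes were low in both libraries, with the higher values in ALK5i cells.

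Further members of the same cycle stood on the same side below 2-fold. acadvl had 89.7 CPM with ALK5i and 41.9 CPM with DMSO, acadm had 118 and 58.9 CPM, and hadhb had 45.5 and 18.7 CPM. cpt1ab, a carnitine palmitoyltransferase that admits fatty acids to the mitochondrion, had 24.6 CPM with ALK5i and 9.06 CPM with DMSO (ratio 0.86, 0.25 to 1.42). Regulators and lipid droplet genes did not share this, with pparab at -0.22, pnpla2, a triglyceride lipase, at -0.30 and plin2, a droplet coat protein, at 0.14.

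Among cells with at least 10000 UMIs and under 0.1% macrophage markers, the list made up a median of 0.119% of UMIs in 12 ALK5i cells (0.0290 to 0.154%) and 0.0613% in 39 DMSO cells (0.0272 to 0.144%), so the ranges overlapped. Without the macrophage-rich cells 16 genes of the list passed, with a median of 0.62. Of these, 2 were at least 2-fold higher and 1 lower, beside 91 and 80 of 3607 among all genes. fabp7a, a fatty acid binding protein gene, was the lower one (-1.02, against -0.14 in all members). In the same setting acadl stood at 1.37, hadhaa at 1.58, acadvl at 0.95 and cpt1ab at 0.86. hadhab was then at 0.90, just under 2-fold.

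Of 17 genes of lipoprotein assembly, 14 passed at 6 dpf, 10 were above 0 and 1 was at least 2-fold higher, and the median was 0.41, beside 0.13 for all genes. apobb.1, a gene for apolipoprotein B, a structural protein of VLDL, had 964 CPM with ALK5i and 543 CPM with DMSO (ratio 0.82, 0.68 to 0.95). apoba had 256 and 136 CPM (0.86), and mttp, which loads lipid onto apolipoprotein B, had 92.2 and 51.0 CPM (0.74). apobb.2 was past 2-fold on 17 UMIs against 4 (21 and 2.27 CPM, ratio 1.33). apoc2, an activator of lipoprotein lipase, had 840 and 491 CPM (0.76). The abundant apoa2 stood at 0.18 and apoc1 at 0.08. Without macrophage-rich cells, apoba was at 1.05, apoc2 at 1.07, mttp at 1.01 and the list median at 0.40. In that setting 3 of 13 genes were at least 2-fold higher, beside 91 of 3607 among all genes.

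**Figure D4:**
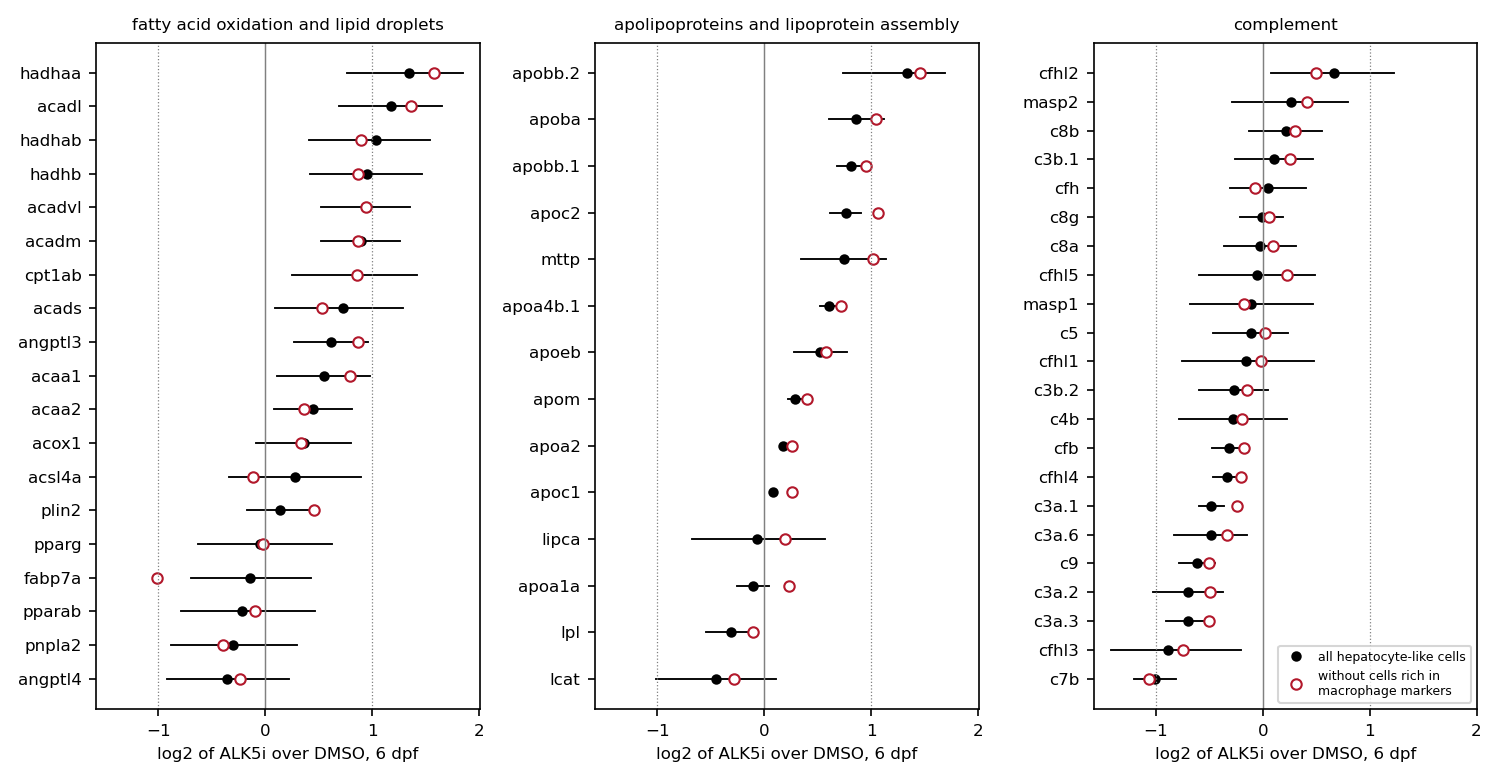
log2 of ALK5i over DMSO at 6 dpf (x) for each gene past the count filter of 3 lists (rows): filled points are all hepatocyte-like cells with 95% counting intervals, open points leave out cells with at least 0.1% macrophage marker UMIs, and dotted lines mark 2-fold. hadhaa and apobb.2 lead their lists on the higher side and c7b ends the complement list on the lower side.

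In sterol and fatty acid synthesis, fads2, a fatty acid desaturase, had 177 CPM with ALK5i and 79.3 CPM with DMSO (ratio 1.07, 0.75 to 1.38). hmgcra, the rate-limiting enzyme of cholesterol synthesis, had 186 and 95.7 CPM (0.89, 0.58 to 1.19). fasn, fatty acid synthase, had 43.0 and 71.9 CPM (-0.63, -1.10 to -0.16, or -0.26 without macrophage-rich cells). Of 18 genes passing, 13 were above 0 and the list median was 0.17, beside 0.13 for all genes. Without macrophage-rich cells 4 of 18 were at least 2-fold higher, beside 91 of 3607 among all genes. The list median was then 0.35, beside 0.07 for all genes.

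Of 22 complement genes passing at 6 dpf, 5 were above 0 and 1 was at least 2-fold lower with ALK5i, and the median was -0.21, beside 0.13 for all genes. c7b, of the membrane attack complex, had 304 CPM with ALK5i and 620 CPM with DMSO (ratio -1.01, -1.21 to -0.81), and was seen in 19 of 30 and 36 of 56 cells. c9, of the same complex, had 431 and 667 CPM (-0.62), and the abundant C3 gene c3a.1 had 939 and 1315 CPM (-0.48). Without macrophage-rich cells the list median was -0.16 and c7b was at -1.07, while 8 of the 22 genes were then above 0.

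Other genes lower with ALK5i at 6 dpf were lect2l, a leukocyte chemotaxin gene (899 CPM with ALK5i and 2090 CPM with DMSO, ratio -1.21), arl13a, a small GTPase gene (128 and 325 CPM, -1.28), and histh1l, a linker histone gene (79.9 and 196 CPM, -1.20). They had a UMI in 26, 16 and 16 of 30 ALK5i cells and in 54, 33 and 40 of 56 DMSO cells. Without macrophage-rich cells they stood at -1.02, -1.16 and -1.09. isoc2 followed at -0.96. The ratio of lect2l was also that of the 1 gene passing on the neutrophil marker list. That list summed to 919 CPM in ALK5i members and 2092 CPM in DMSO members. In the other cells of those libraries it summed to 1741 and 1445 CPM. Whether the lect2l RNA in the members came from neutrophils was not tested. BX908782.2 was lower by the most (-2.46), on 26 UMIs in 2 ALK5i cells and 390 UMIs in 10 DMSO cells. bhmt, which remakes methionine from homocysteine, had 1808 and 3051 CPM (-0.75), and gstp1, a glutathione transferase, was higher at 590 and 262 CPM (1.14, or 0.91 without macrophage-rich cells).

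The 6 genes highest with ALK5i at 6 dpf among those averaging at least 100 CPM did not outlast the removal of the macrophage-rich cells. grn2, a granulin gene expressed by macrophages, had 641 UMIs in 6 ALK5i cells and 0 in DMSO cells, at least 8.86 on the log2 scale against the 3-count floor of the DMSO sum, and 0 UMIs in either set without those cells. fabp11a (ratio 4.59), icn (3.49), havcr1 (3.25), the ferritin gene fthl29 (3.07) and fthl28 (2.97) stood at -0.54, 0.29, 0.08, -0.37 and -0.90 without them. All 415 fthl29 UMIs of the ALK5i set came from 1 cell.

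Targets of TGF-β and BMP showed no shared direction at 6 dpf. Of 34 genes on that list 12 passed, 5 of them above 0, with a median of -0.16. id1, a BMP target, was at least 2-fold higher with ALK5i (84.8 and 28.3 CPM, ratio 1.31, 0.86 to 1.74, or 1.81 without macrophage-rich cells). id2b had 392 and 219 CPM (0.81). skila, a TGF-β feedback gene, had 2.46 CPM with ALK5i and 14.2 CPM with DMSO on 2 and 25 UMIs (-0.96). The inhibitor had been withdrawn at 50 hpf, before either harvest.

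At 3 dpf, on far fewer counts, the hepcidin gene hamp and the fibrinogen gene fgb were among the genes at least 2-fold higher with ALK5i. The 2 sets differed in make-up: 3 DMSO cells held 10315, 12197 and 17283 of the 112785 summed UMIs, against at most 7498 in an ALK5i cell. The median member had 1536 genes with ALK5i and 950 with DMSO. The part of this imbalance in the 3 dpf ratios and cell counts below was not tested. Of 1290 genes passing, 138 were at least 2-fold apart (10.7%), 68 higher (5.27%) and 70 lower (5.43%), with a median over all genes of 0.02. With the rule share set at 2%, 72 were higher and 137 lower, and at 5%, 48 higher and 26 lower. hamp, which encodes hepcidin, the hormone that limits iron release, had 6375 CPM with ALK5i (619 UMIs) and 2554 CPM with DMSO (288 UMIs), a ratio of 1.32 (1.11 to 1.52). It had a UMI in 17 of 26 ALK5i cells and 11 of 24 DMSO cells, with highest single-cell shares of 1.44% and 0.669%, and its ratio was 1.56 without macrophage-rich cells.

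Clotting genes had the highest median at 3 dpf among the liver lists with at least 5 genes passing. Of 15 genes 7 passed, 6 were above 0, 2 were at least 2-fold higher, and the median was 0.62. The fibrinogen chains had 2317 CPM with ALK5i and 1108 CPM with DMSO for fgb (ratio 1.06, 0.74 to 1.38), 3213 and 1986 CPM for fgg (0.69, 0.44 to 0.94) and 1421 and 1046 CPM for fga (0.44, 0.08 to 0.80). f9b, clotting factor IX, had 16 UMIs with ALK5i and 8 with DMSO (1.11, -0.08 to 2.34). The list made up a median of 0.702% of a cell's UMIs with ALK5i (0 to 1.54%) and 0.365% with DMSO (0 to 1.22%), so single cells overlapped widely. fgb had a UMI in 19 of 26 ALK5i cells and in 22 of 24 DMSO cells, a smaller part of the cells with ALK5i. Its ratio was 0.94 without macrophage-rich cells.

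il6st, the receptor subunit shared by interleukin 6 and its relatives, had 25 UMIs in 13 of 26 ALK5i cells and 5 UMIs in 4 of 24 DMSO cells (257 and 44.3 CPM, ratio 2.30, 1.05 to 3.59). cebpa, a liver transcription factor that myeloid cells also use, had 628 and 284 CPM (1.12, 0.50 to 1.76). cdkn1bb, a cell cycle inhibitor gene, had 19 UMIs in 15 ALK5i cells and 4 UMIs in 3 DMSO cells (2.18, 0.80 to 3.55). In the other cells of the 3 dpf libraries il6st was at 0.03 and cdkn1bb at -0.02. Without macrophage-rich cells il6st was at 2.30 and cebpa at 1.22.

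Of the TGF-β and BMP list only 5 of 34 genes passed at 3 dpf, 4 of them above 0. id3, a BMP target, had 268 CPM with ALK5i and 115 CPM with DMSO (26 and 13 UMIs, ratio 1.15, 0.19 to 2.14), and junba had the same counts. g6pca.2, which releases glucose from its phosphate, had 772 and 301 CPM (1.33, 0.74 to 1.94).

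Lower with ALK5i at 3 dpf were apoc1, a small lipoprotein protein (505 and 1108 CPM, ratio -1.12, -1.62 to -0.64), and the C3 gene c3a.2 (360 and 763 CPM, -1.06, -1.65 to -0.49). Without macrophage-rich cells they stood at -1.40 and -1.20, id3 at 1.53 and junba at 0.87. The 6 lowest genes averaging at least 100 CPM were si:ch211-147m6.1 (-3.43), MFAP4 (-2.93), si:ch211-194m7.3 (-2.79), the chemokine gene ccl35.1 (-2.72), the small heat shock gene hspb1 (-2.68) and the protease gene ctsz (-2.33). si:ch211-194m7.3 had 63 UMIs in 6 of 24 DMSO members, and 7 UMIs in 3 of 26 ALK5i members. Each of the 6 was at 186 to 736 CPM in the DMSO members and at 474 to 2743 CPM in the other cells of the 3 dpf libraries, and the macrophage markers stood at 319 CPM with ALK5i and 896 CPM with DMSO. Without macrophage-rich cells ccl35.1 was at -0.41, hspb1 at -1.17, si:ch211-194m7.3 at -1.55, ctsz at -1.68 and si:ch211-147m6.1 at -2.86. pvalb8, the highest gene with ALK5i, had all 37 UMIs in 1 cell.

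The treatment ratios of the 2 stages share no library. Among 1250 genes passing at both, 43 were at least 2-fold higher at 6 dpf and 64 at 3 dpf, and 2 were in both sets (4.65% and 3.12% of each). These were icn and si:rp71-1h20.9. The 2 percentages lay near the shares that were 2-fold higher among all genes passing, 5.27% at 3 dpf and 3.51% at 6 dpf. icn stood at 0.29 at 6 dpf without macrophage-rich cells, and si:rp71-1h20.9 at 1.32. Of 5 genes 2-fold lower at 6 dpf and 58 at 3 dpf among the same 1250, none was shared, and 5 genes are too few to read this. At 6 dpf hamp was at -0.12, fgb at -0.05 and il6st at -0.19, below their 3 dpf ratios, while acadl was at 1.18 at 6 dpf and -0.02 at 3 dpf. c7b had 1730 CPM with ALK5i and 1197 CPM with DMSO at 3 dpf (0.53), the opposite side from 6 dpf.

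Between the stages the hepatocyte-like cells differed much more than between the treatments. Ratios are 6 dpf over 3 dpf. In ALK5i members 1335 of 2508 genes were at least 2-fold apart (53.2%), 358 higher (14.3%) and 977 lower (39.0%). In DMSO members 1988 of 3570 were (55.7%), 407 higher (11.4%) and 1581 lower (44.3%). A few plasma protein genes took a much larger share of the RNA at 6 dpf. The median ratio of all genes was -0.66 with ALK5i and -0.84 with DMSO. With rule genes and mitochondrial genes left out of the total it was -0.56 and -0.72. In that setting 401 were higher and 893 lower with ALK5i, and 438 higher and 1461 lower with DMSO. The part of the plasma protein genes in the medians was not tested. Scaled instead by the median of gene ratios, which by design brings the medians close to 0, they were 0.07 and 0.06. The balance then turned round, with 646 higher and 458 lower with ALK5i and 876 higher and 602 lower with DMSO. With the rule share set at 5%, the DMSO split also turned, with 1155 higher and 991 lower and a median of -0.23, while with ALK5i 384 were higher and 739 lower. Values below are relative to the summed UMIs, so a ratio near -0.7 to -0.8 marks a gene that kept pace with the median gene. The ALK5i and DMSO stage ratios share no library, and 195 genes were at least 2-fold higher in both, 59.6% of 327 with ALK5i and 66.6% of 293 with DMSO, among 2417 genes passing in both. Of the lower genes 722 were shared, 75.9% of 951 and 70.4% of 1026.

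Several carriers of lipid and small molecules were much higher at 6 dpf. apoc1 had 28804 CPM with ALK5i and 27222 CPM with DMSO at 6 dpf, against 505 and 1108 CPM at 3 dpf, ratios of 5.81 (5.41 to 6.23) and 4.61 (4.35 to 4.87). In single cells it made up 0.910 to 6.75% of UMIs at 6 dpf with ALK5i and at most 0.152% at 3 dpf, so these ranges did not touch. With DMSO the lowest 6 dpf cell (0.436%) lay just under the highest 3 dpf cell (0.447%). fetub, a plasma protease inhibitor, had 5217 and 7529 CPM at 6 dpf and 237 and 372 CPM at 3 dpf (4.40 and 4.30). rbp4, the retinol carrier of plasma, had 11729 and 9547 CPM at 6 dpf and 906 and 993 CPM at 3 dpf (3.68 and 3.25). ahsg1, a fetuin gene, had 320 and 306 CPM at 6 dpf and 0 UMIs at 3 dpf, at least 3.37 with ALK5i and 3.53 with DMSO against the floor.

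The carriers and inhibitors did not all go this way. agt, angiotensinogen, had 422 and 541 CPM at 6 dpf against 1102 and 647 CPM at 3 dpf. serpinc1, antithrombin, had 586 and 609 CPM against 875 and 763 CPM. The median ratio of all genes was -0.66 with ALK5i and -0.84 with DMSO. agt fell further than this with ALK5i and less with DMSO, and serpinc1 fell less with both. Of 23 genes on that list, 8 of 21 passing with ALK5i and 9 of 22 passing with DMSO were at least 2-fold higher, and 3 and 0 were 2-fold lower. Among all genes 14.3% and 11.4% were higher, and 39.0% and 44.3% lower. apobb.1 had 964 and 543 CPM at 6 dpf against 227 and 266 CPM at 3 dpf (2.04 and 1.0), and mttp had 92.2 and 51.0 CPM against 340 and 177 CPM (-1.78 and -1.62).

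Sugar and amino acid metabolism was likewise split by enzyme. pck1, which opens glucose synthesis, had 1223 and 1037 CPM at 6 dpf and 61.8 and 88.7 CPM at 3 dpf (4.10 and 3.41). gck, the liver glucokinase, was lower by the most of that list, with 3 and 4 UMIs at 6 dpf (3.69 and 2.27 CPM) and 23 and 25 UMIs at 3 dpf (237 and 222 CPM), ratios of -4.17 and -4.24. tat, which starts tyrosine breakdown, had 1076 and 1385 CPM at 6 dpf and 154 and 160 CPM at 3 dpf (2.72 and 3.04). tdo2b, which starts tryptophan breakdown, had 270 and 225 CPM at 6 dpf and 0 UMIs at 3 dpf.

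**Figure D5:**
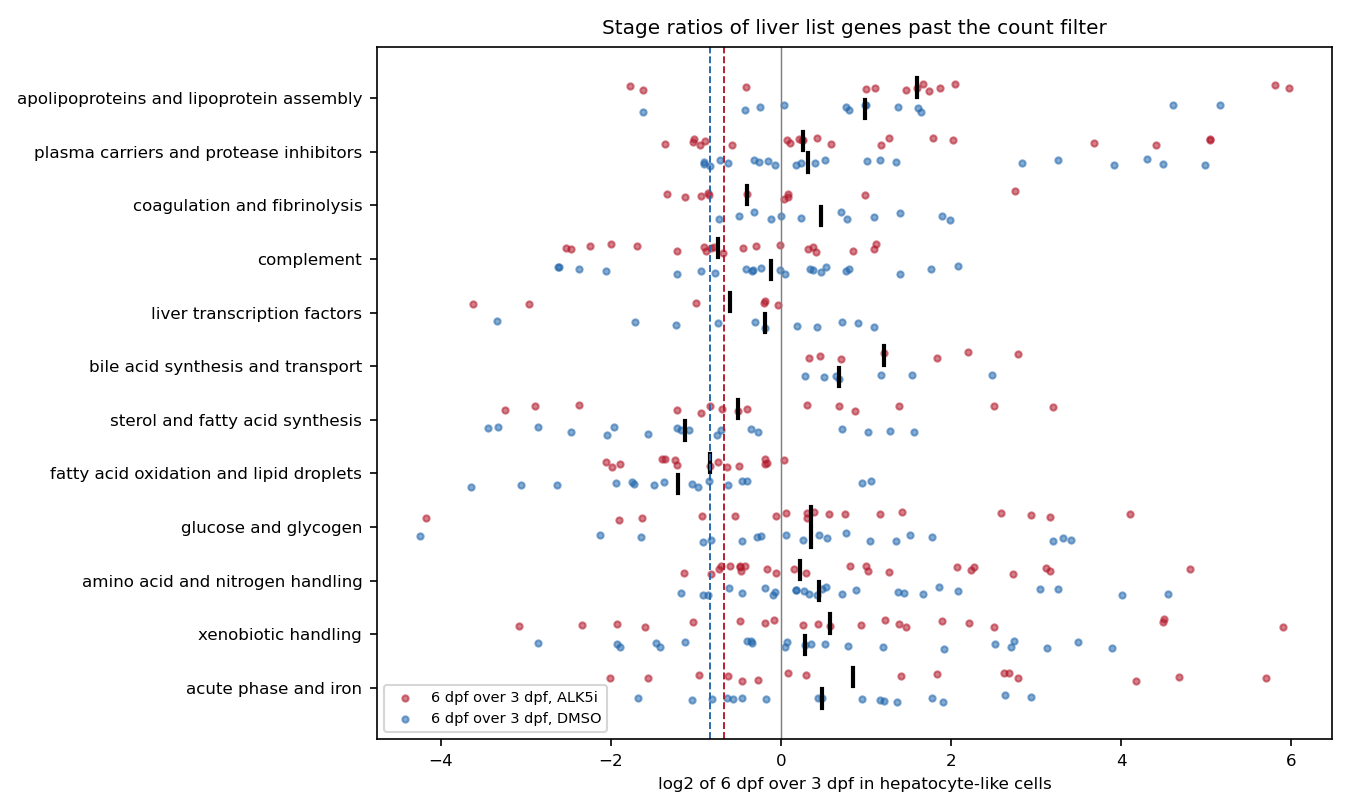
log2 of 6 dpf over 3 dpf (x) for each gene past the count filter in 12 liver lists (rows), with ALK5i in red and DMSO in blue; black bars are list medians and dashed lines the median of all genes (-0.66 with ALK5i, -0.84 with DMSO). apoc1 and apoa1a lie far to the right in the apolipoprotein row, while fatty acid oxidation lies mostly left of 0, near the median of all genes.

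Of the sterol and fatty acid synthesis genes passing, 3 of 15 with ALK5i and 3 of 18 with DMSO were at least 2-fold higher at 6 dpf, and 4 and 10 were 2-fold lower. In fatty acid oxidation 0 of 15 and 1 of 16 were higher, and 7 and 9 lower. Beside both lists, 14.3% and 11.4% of all genes were higher, and 39.0% and 44.3% lower. hmgcs1, which starts sterol synthesis, had 27 and 20.4 CPM at 6 dpf and 340 and 319 CPM at 3 dpf (-3.24 and -3.44), and fdps had 13.5 and 15.9 CPM against 165 and 248 CPM (-2.89 and -3.32). The list medians were -0.51 with ALK5i and -1.13 with DMSO for sterol and fatty acid synthesis, and -0.83 and -1.21 for fatty acid oxidation. Except for sterol and fatty acid synthesis with ALK5i, these lay below the median of all genes. Scaled by the median of gene ratios they were 0.16 and -0.06, and -0.05 and -0.17, so sterol and fatty acid synthesis with ALK5i turned to the other side and the rest came close to 0. hadhaa had 36.9 and 8.50 CPM at 6 dpf and 175 and 222 CPM at 3 dpf, and its ratio was larger in size with DMSO (-3.65) than with ALK5i (-1.98).

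Bile and detoxification genes differed among themselves. cyp7a1, the rate-limiting enzyme of bile acid synthesis, had 48 UMIs in 12 ALK5i cells and 81 UMIs in 21 DMSO cells at 6 dpf (59.0 and 45.9 CPM) and 0 UMIs at 3 dpf, where 0 allows up to 30.9 and 26.6 CPM. cyp2ad2, a cytochrome P450, had 589 and 309 CPM at 6 dpf, against 0 and 26.6 CPM at 3 dpf. cyp1a, the P450 induced through the aryl hydrocarbon receptor, ran the other way, with 130 and 160 CPM at 6 dpf and 1174 and 638 CPM at 3 dpf (-3.08 and -1.93). nr1h4, the bile acid receptor FXR, had 11.1 and 6.80 CPM against 154 and 160 CPM (-2.97 and -3.34).

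cfh, the regulator complement factor H, had 101 and 96.9 CPM at 6 dpf and 628 and 647 CPM at 3 dpf (-2.53 and -2.62), and cfb, which forms the alternative convertase, had 494 and 617 CPM against 1998 and 1454 CPM (-1.99 and -1.22). c9 had 431 and 667 CPM against 803 and 479 CPM, lower with ALK5i (-0.88) and higher with DMSO (0.47). crp2, a C-reactive protein gene, was left out of the acute phase list because its symbol is duplicated among the features. The entry used here had 5112 and 2491 CPM at 6 dpf and 51.5 and 177 CPM at 3 dpf. Single cells at 6 dpf ran between 0 and 2.29% with ALK5i (median 0.243%) and between 0 and 0.829% with DMSO (median 0.0464%). crp3 had 509 and 474 CPM against 10.3 and 53.2 CPM (4.68 and 2.94). hamp was higher at 6 dpf with DMSO (5760 and 2554 CPM, 1.17) and not with ALK5i (5302 and 6375 CPM, -0.27).

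The genes highest at 6 dpf by the naming rule were led by ucp1, a mitochondrial carrier gene, with 2222 CPM in 28 of 30 ALK5i cells and 3680 CPM in 56 of 56 DMSO cells at 6 dpf, against 0 and 2 UMIs at 3 dpf (at least 6.17 with ALK5i against the floor, and 7.06 with DMSO). pnp4b, a purine nucleoside phosphorylase gene, had 1918 and 2018 CPM at 6 dpf against 2 and 4 UMIs at 3 dpf (5.98 and 5.48), and apoa1a had 616 and 663 CPM against 0 and 1 UMI. ucp1 was also higher at 6 dpf in the other cells of the libraries, by 3.10 with ALK5i and 4.96 with DMSO. At the low end, gch2 had 1 and 2 UMIs at 6 dpf and 37 and 133 at 3 dpf (-5.12 and -6.74), and in the other cells its ratios were -7.72 and -6.87. CABZ01021592.1 had 0 and 1 UMI at 6 dpf and 129 and 392 UMIs at 3 dpf. Its ratio was -8.37 with DMSO and -8.49 or lower with ALK5i against the floor, and in the other cells -6.85 and -6.77. Both genes were thus also far lower at 6 dpf in the pool of all other cells, which came from a different gate at each stage. Levels within a kind of cell were not compared. The chromatin protein gene hmga1a had 23.8 CPM at 6 dpf and 1117 CPM at 3 dpf with DMSO (-5.06, against -2.29 in the other cells).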

How the data were processed

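The deposited matrices hold raw UMI counts per gene and cell, made from Chromium 3′ v4 libraries. The file headers name Cell Ranger 9.0.0, and the submitters' processing notes name 9.0.1 and the build GRCz11. The annotation release and the cell calling are not given in the sources used here. The members and all gene lists were chosen with earlier results of these data known.

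Counts of the members were summed per library and scaled to CPM, counts per 1000000. A ratio is log2 of CPM with 10 CPM added on each side, for genes with an Ensembl identifier and at least 20 UMIs over the 2 libraries, and its interval is the exact conditional binomial 95% interval. A count of 0 was bounded by 3 UMIs. With 1 library per group there is no test. The ratio of summed counts and its interval were tested on simulated Poisson counts, and the other steps were not. Those counts lack the clustering of UMIs in single cells, so the test says nothing about the interval under such clustering. Of 639 list symbols 588 matched the 27758 features, which include 13 added sequences, and duplicated or unmatched symbols were left out. Doublets were called with Scrublet in scanpy 1.11.5, under Python 3.11.15 with numpy 2.4.6, scipy 1.17.1 and pandas 2.3.3.

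Per comparison the text names the 6 highest and 6 lowest ratios among genes averaging at least 100 CPM, the rule genes, genes past 2-fold at both stages, and the extreme and the 3 most abundant genes of each list. acadl, acadvl, cpt1ab, fabp7a, hadhab, hadhb, pparab, vil1, pnpla2, apoba, apobb.1, apoc2, fdps, serpinc1 and tat, and a value of another gene given outside the comparison that named it, were chosen after their values were seen. The alternatives changed the rule share, pseudocount, count filter, scaling and the cells kept.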

Additional observations from a re-analysis of the deposited data

Results flagged for a closer look

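Only the genes named by rule in the 2 treatment comparisons were searched here. For 3 of them the ratio of ALK5i over DMSO lay past 2-fold in opposite directions at the 2 stages. The difference was not tested. hspb1 stood at 1.03 at 6 dpf and -2.68 at 3 dpf. si:ch211-147m6.1 stood at 1.32 at 6 dpf and -3.43 at 3 dpf. si:ch211-194m7.3 stood at 1.53 at 6 dpf and -2.79 at 3 dpf. Outside that search, crp2 was also past 2-fold in opposite directions. It had 5112 CPM with ALK5i and 2491 CPM with DMSO at 6 dpf. At 3 dpf it had 51.5 and 177 CPM, on only 5 and 20 UMIs. The macrophage markers moved the same way: they were higher with ALK5i at 6 dpf (1616 CPM, against 189 CPM with DMSO) and lower at 3 dpf (319 CPM, against 896 CPM). Their part in the result was not tested. Without cells of at least 0.1% macrophage markers, hspb1 stood at -1.88, si:ch211-147m6.1 at -0.30 and si:ch211-194m7.3 at 0.019 at 6 dpf.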

How the results depend on the processing

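No paired analysis was possible because each group is 1 library. The allowance for a list median was the median half-width of the counting intervals of its genes. It is an allowance for single genes and not the error of a list median. Of the list medians under the alternatives, 1026 stayed within it and 56 moved by more, while 4 that had been past 2-fold turned sign. Of the values of named genes, 5445 stayed within the gene's own counting interval, 923 left it and 42 that had been past 2-fold turned sign. The share of hepatocyte-like cells was 0.0510% at 3 dpf with ALK5i at a rule share of 5%. At 3 dpf with DMSO it was 0.111% at 2% and 0.0263% at 5%, and at 6 dpf with DMSO 1.58% without members of 3 or more macrophage UMIs. The count of genes past 2-fold between ALK5i and DMSO at 3 dpf was 209 at a rule share of 2%, 74 at 5%, 83 with a pseudocount of 50 CPM, 35 with at least 50 UMIs, 4227 without a filter and 218 with per-cell means. At 6 dpf it was 573 with a pseudocount of 1 CPM, 41 with 50 CPM, 105 with at least 50 UMIs and 496 with per-cell means. Between stages it was 830 with ALK5i and 903 with DMSO without members of 3 or more macrophage UMIs, 782 and 966 with a pseudocount of 50 CPM, 590 and 927 with at least 50 UMIs, and 5285 and 4678 without a filter.

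Of the list medians, sterol and fatty acid synthesis over the stages with DMSO was 0.13 at a rule share of 5%. The macrophage marker median at 6 dpf was -1.44 without members of 3 or more macrophage UMIs and -1.45 without those of 0.1% or more. Over the stages with ALK5i it was -0.0015 without cells of 0.1% or more. Each of these macrophage values is that of 1 gene, the only marker then passing the count filter. The cells were left out by these same markers, so a fall of the macrophage values was built in and tests nothing.

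Signs also turned for single genes. At a rule share of 5%, ALK5i over DMSO was 0.14 for ccl35.1, 0.28 for crp2, -0.56 for icn and 1.43 for si:ch211-194m7.3 at 3 dpf, and -0.21 for fabp11a, -2.12 for fthl28 and -2.64 for fthl29 at 6 dpf. At that share the stage ratio was 0.98 for cebpa and 1.34 for havcr1 with DMSO, and 0.11 for cpt1ab, -1.16 for fthl28, -0.066 for havcr1, 2.0 for icn, 0.23 for id3 and 0.41 for plin2 with ALK5i. At a share of 2% it was -0.21 for BX908782.2 and -0.41 for id1 with ALK5i. Thinned to 1000 UMIs it was -0.22 for fasn and -0.91 for id1.

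Without members of 3 or more macrophage UMIs, ALK5i over DMSO was 0.36 for hspb1 at 3 dpf, and at 6 dpf -0.091 for fabp11a, -0.21 for fthl29, -2.88 for hspb1, -0.40 for si:ch211-147m6.1 and -0.21 for si:ch211-194m7.3. The stage ratio with ALK5i was then -0.87 for fthl28, -1.35 for havcr1 and -0.17 for hspb1. Without members of 0.1% or more, ALK5i over DMSO at 6 dpf was -0.54 for fabp11a, -0.90 for fthl28, -0.37 for fthl29, -1.88 for hspb1, -0.30 for si:ch211-147m6.1 and -0.24 for tmsb4x. The stage ratio with ALK5i was -1.12 for fthl28, -1.44 for havcr1 and -0.18 for hspb1, and with DMSO 0.16 for havcr1. With per-cell means, ALK5i over DMSO was -0.98 for icn at 3 dpf and -1.33 for hspb1 at 6 dpf. Without the deepest member of each library, icn was -2.89 at 3 dpf and 3.07 over the stages with ALK5i. The causes were not tested. A count of 0 allows up to 3.69 CPM with ALK5i and 1.70 CPM with DMSO at 6 dpf, and 30.9 and 26.6 CPM at 3 dpf.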
